A study of Mus musculus with 6 samples.

Results

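The 9 genes described here encode components and receptors of the complement system, namely C1qa, C1qb, C1qc, C1ra, C1s, C4b, C3, C3ar1 and C5ar1. They were taken by the gene name that the array files give their probes, which found 11 probes among 55681, and 7 of the 9 genes were among the 18003 genes with a probe bright enough to test. The samples were the intermediate and the outer layer of the interzone, the cell band between the cartilage templates of a limb where a joint will form, from mouse embryos at 15.5 days of gestation. Each layer had 3 samples, each replicate was 1 embryo, and the labels give no strain, genotype or treatment and do not say how the layers were separated. Total RNA was labelled with Cy3 and hybridised to 1-colour Agilent arrays, 1 for each sample.

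Complement is a cascade of plasma proteins that marks microbes, immune complexes and dying cells for uptake. In the classical pathway C1q, built of the A, B and C chains of the genes C1qa, C1qb and C1qc, binds a surface and activates the proteases C1r and C1s, which cleave C4 and C2. The resulting convertase cleaves C3, whose large fragment coats the target, and the small fragments of C3 and C5 act on cells through the receptors encoded by C3ar1 and C5ar1. The liver makes most of the C3 and C4 of plasma, whereas C1q is made largely by macrophages and related cells outside the liver.

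Each value below is a level, the log2 processed signal of a probe minus the log2 of its array's 75th percentile, and a difference is the outer minus the intermediate mean of these levels. Levels of different probes are not compared. The outer replicate 1 array was the dimmest, with a 75th percentile of 47.4 signal units where the other 5 had 144.3 to 343.6, and 35.6% of its spots were well above background (45.1% to 53.4% on the others). The difference of the median gene was 0.10, and it moved to -0.29 when each array was scaled to its median. Cartilage markers were higher in the outer samples, with 10 of 11 tested called and a median difference of 3.19. Of 10 fibroblast markers 1 was called (Dpt, difference -2.87), with a median difference of -0.23. With the replicate number as a block 11 cartilage and 3 fibroblast markers were called. A gene was called where the adjusted p of limma, a linear model with shared variance estimates, was below 0.05 over all genes tested. Such calls were made for 4.05% of all genes, and 2.48% were called lower in the outer layer.

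The sequences of the probes for C1qa, C1qb and C3 are shown because the lower C1q level and the unequal behaviour of the C3 probes rest on them, and they are written 5′ to 3′ on the strand of the transcript with no base singled out. In build mm9 they lie on the minus strand at chr4:136452409-136452468, chr4:136436578-136436637 and chr17:57343678-57343737.
C1qa: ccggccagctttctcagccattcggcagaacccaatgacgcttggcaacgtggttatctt
C1qb: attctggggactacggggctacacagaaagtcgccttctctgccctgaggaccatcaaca
C3: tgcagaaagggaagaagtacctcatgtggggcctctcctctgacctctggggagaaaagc

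The genes of all 3 C1q chains were lower in the outer layer. For C1qa the intermediate levels were 2.05, 1.66 and 2.37 (replicates 1, 2 and 3) and the outer levels -2.97, -0.40 and -1.88. The lowest intermediate sample thus lay well above the highest outer sample, which was replicate 2. The difference was -3.78 (SE 0.60, limma adjusted p = 0.0241), with means of 2.03 ± 0.36 in the intermediate layer and -1.75 ± 1.29 in the outer layer (SD, n = 3 each). The dim outer replicate 1 array did not measure C1qa well above background, and the size of the difference is therefore less certain than its direction in the samples.

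C1qb, the gene of the B chain, was well above background on all 6 arrays. Its levels were 2.00, 1.48 and 2.33 in the intermediate layer and -1.61, -0.56 and -1.03 in the outer layer. The groups did not overlap, and outer replicate 1 was again the lowest and outer replicate 2 the highest of the outer samples. C1qb was 8.03-fold lower in the outer layer (difference -3.01, 95% interval -3.79 to -2.22, limma adjusted p = 0.0100).

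C1qc, the gene of the C chain, had levels of 2.96, 2.76 and 3.65 in the intermediate layer and -2.06, 0.93 and -0.70 in the outer layer. It kept the same order of outer samples as the other chains, and its 3 intermediate samples lay above all outer ones. The difference was -3.74 (95% interval -5.39 to -2.09, limma adjusted p = 0.0378), and outer replicate 1 was not well above background. The C1qc probe (mm9 chr4:136445766-136445825) is printed 10 times on each array. The SD of log2 signal between these spots was 0.03 to 0.05 on the intermediate arrays and 0.28 on outer replicate 1, which is small beside the distances between the outer samples.

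**Figure D1:**
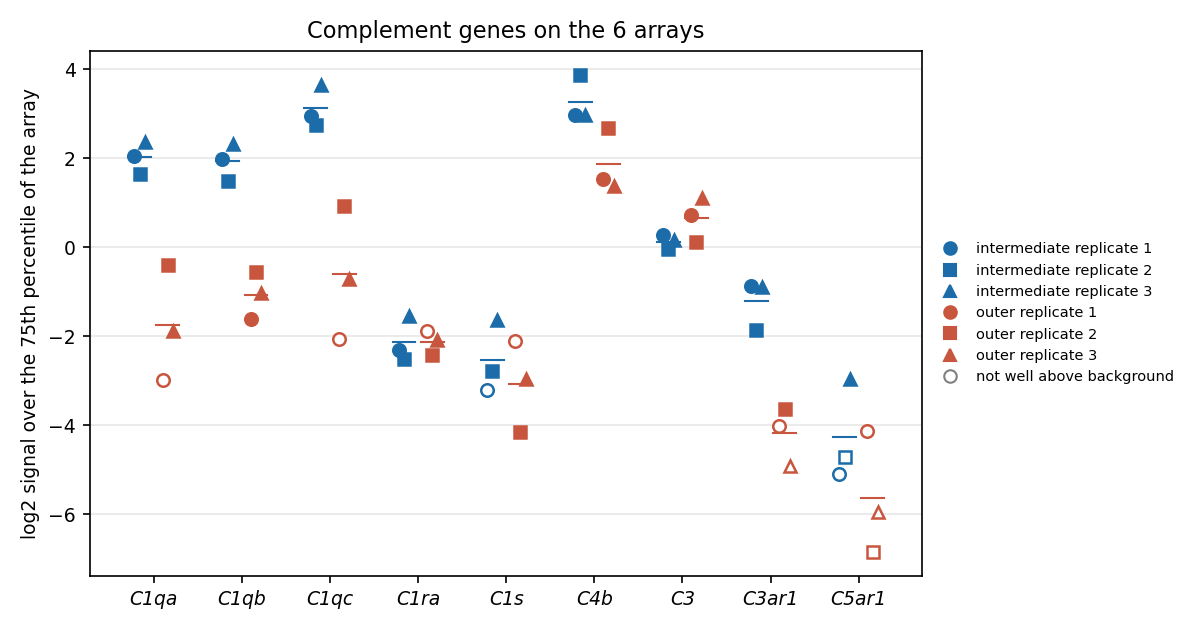
Levels of the 9 complement genes (log2 of signal relative to the array's 75th percentile, y axis) on the 3 intermediate (blue) and 3 outer (red) arrays, with 1 symbol for each replicate number, short lines for group means and open symbols for spots not well above background. C1qa, C1qb, C1qc, C4b and C3ar1 have groups that do not overlap, while the groups of C1ra, C1s, C3 and C5ar1 overlap.

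The 3 C1q probes lie within 15891 bases on chromosome 4 of mm9. In the RefSeq order of GRCm38.p6 the genes stand next to each other as C1qb, C1qc and C1qa, between the ephrin receptor genes Ephb2 and Epha8. Ephb2, tested with levels of -1.04 in the intermediate layer and -0.62 in the outer layer, differed by 0.42 (limma adjusted p = 0.438). Zbtb40, beyond Epha8, differed by 0.28 (limma adjusted p = 0.493), and Epha8 itself was too dim to test. The contrast between the C1q genes and these neighbours was not tested.

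Because the C1q genes moved together, the 250 bases before their start sites are shown for the chains that the RefSeq table of promoters holds. The table (GRCm38.p6) held windows for 7 of the 9 genes and none for C1qa or C4b. The capitals mark GAGGAA, a core sequence bound by the macrophage and B-cell factor PU.1, on either strand. The windows lie on the minus strand at chr4:136886201-136886450 for C1qb and chr4:136892915-136893164 for C1qc.
C1qb: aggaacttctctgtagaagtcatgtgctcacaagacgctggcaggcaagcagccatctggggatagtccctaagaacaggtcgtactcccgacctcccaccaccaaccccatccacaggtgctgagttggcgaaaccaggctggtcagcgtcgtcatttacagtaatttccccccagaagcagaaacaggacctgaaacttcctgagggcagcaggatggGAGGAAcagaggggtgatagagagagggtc
C1qc: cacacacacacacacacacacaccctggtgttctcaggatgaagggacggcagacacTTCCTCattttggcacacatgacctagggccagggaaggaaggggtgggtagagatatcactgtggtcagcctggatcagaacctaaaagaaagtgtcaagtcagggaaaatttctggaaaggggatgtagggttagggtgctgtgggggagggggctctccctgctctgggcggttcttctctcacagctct

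GAGGAA began 30 bases before the start of C1qb on the gene's strand and 193 bases before the start of C1qc on the opposite strand. It was in no window of the other 5 genes. Of all 32851 promoter windows of this length, 23.3% held it. GAAANNGAA, of the interferon response type, was in the C5ar1 window alone (7.13% of all windows). TTGCNNAA, of the C/EBP type, was in those of C1s and C3 (9.56%), and TTCNNNGAA, of the STAT type, was in none (7.02% of all). GAGGAA and GAAANNGAA can share bases, and no window of these genes held more than 1 of the 4 sequences. These matches describe letters only.

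Neither gene of the proteases that C1q activates was called. C1ra, the gene of the first protease, had levels of -2.30, -2.51 and -1.55 in the intermediate layer and -1.89, -2.43 and -2.09 in the outer layer. The groups lay over each other, with a difference of -0.02 and a 95% interval of -0.70 to 0.67 (limma adjusted p = 0.978; mm9 chr6:124473052-124473111). The outer replicate 1 spot was not well above background. A second C1ra probe (chr6:124472674-124472733), measured on all 6 arrays, differed by -0.35 (95% interval -1.52 to 0.82, limma adjusted p = 0.732 over all probes). C1ra was dim on every array, at 12.8 to 117.2 signal units, which leaves room for changes that the probe could not show.

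C1s, the gene of the second protease and now named C1s1, was well above background on 2 of 3 arrays of each group and was not tested. Its levels were -3.20, -2.78 and -1.64 in the intermediate layer and -2.11, -4.14 and -2.95 in the outer layer (mm9 chr6:124480775-124480834). The outer samples lay on both sides of the intermediate mean of -2.54, and the group means differed by -0.53.

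C4b encodes C4, the protein that C1s cleaves. Its levels were 2.96, 3.88 and 2.98 in the intermediate layer and 1.54, 2.68 and 1.39 in the outer layer, well above background on all 6 arrays. All outer samples were below all intermediate samples, with replicate 2 the highest of each group. The difference of -1.40 (95% interval -2.38 to -0.43) did not pass (limma adjusted p = 0.117). With the replicate number as a block it did (limma adjusted p = 0.0270), in a fit that called 4.44% of all genes lower in the outer layer. It did not pass with slide as a covariate, within the first slide, or with the block and slide together (limma adjusted p = 0.116, 0.0647 and 0.0669). Without outer replicate 2 the difference was -1.81 and passed (limma adjusted p = 0.0334). With array weights, a fit that called 3993 of the 18003 genes, it was -1.62 and passed (limma adjusted p = 0.0128). The accessions of the C4b probe (mm9 chr17:34865328-34865387) include one of C4a, its near-identical neighbour, so these values may hold signal of both.

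C3, the central component of the cascade, had levels of 0.28, -0.05 and 0.16 in the intermediate layer and 0.72, 0.12 and 1.11 in the outer layer. Outer replicates 1 and 3 were above every intermediate sample, and outer replicate 2 lay among them. The difference was 0.52 (95% interval -0.12 to 1.17, limma adjusted p = 0.325), with all 6 arrays well above background. Zero lies within the interval.

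The second C3 probe, 202 bases away on the chromosome (mm9 chr17:57343416-57343475), gave the opposite sign. Its levels were -2.02, -2.26 and -1.05 in the intermediate layer and -3.10, -2.94 and -2.20 in the outer layer. Outer replicate 3 lay just above intermediate replicate 2, and the other outer samples lay below all intermediate ones. The difference was -0.97 (95% interval -1.86 to -0.08, limma adjusted p = 0.214 over all probes). This probe was dim, at 5.54 to 165.9 signal units, and its 10 spots on the outer replicate 1 array had an SD of 0.69 in log2 signal and were not well above background. With normexp, a model-based background correction, it differed by -0.07 and the first probe by 0.35. The mean of both probes gave -0.22 (limma adjusted p = 0.691), so no direction for C3 is settled by these arrays.

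**Figure D2:**
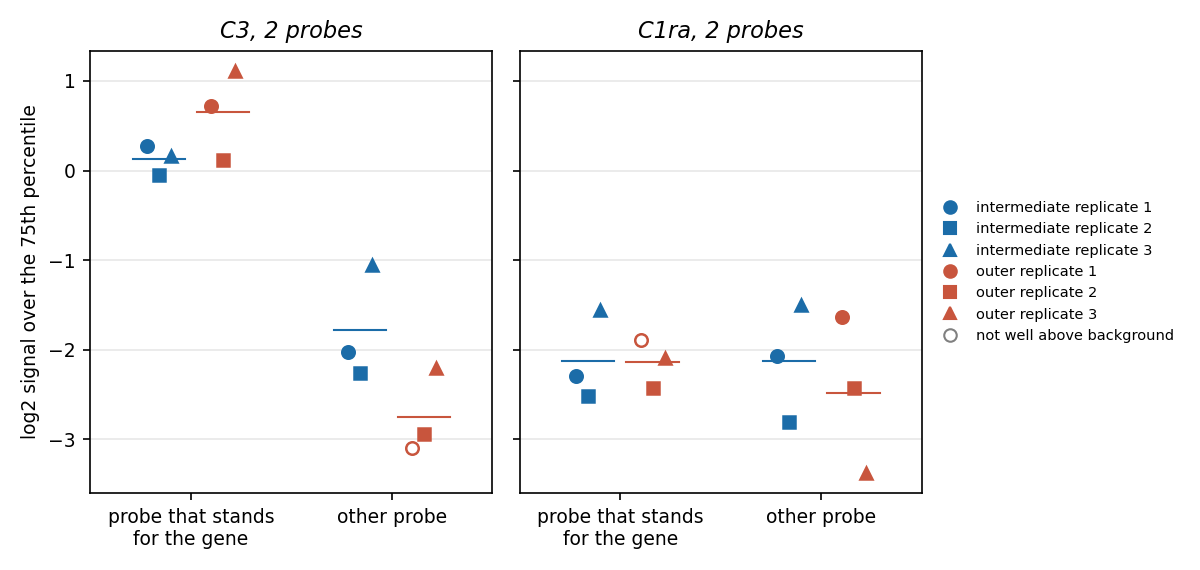
Levels of the 2 probes of C3 and of C1ra (log2 signal over the 75th percentile, y axis) on the 3 intermediate (blue) and 3 outer (red) arrays, with short lines for group means and open symbols for spots not well above background. The C3 probe that stands for the gene has a higher outer mean (0.65 against 0.13), the other C3 probe a lower one (-2.75 against -1.78), and the C1ra groups overlap for both probes.

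Of the receptors, C3ar1, which binds the small fragment of C3, was lower in the outer layer. Its levels were -0.86, -1.86 and -0.90 in the intermediate layer and -4.03, -3.63 and -4.91 in the outer layer (mm9 chr6:122798222-122798281). The groups were more than 1 unit apart, but only outer replicate 2 was well above background among the outer arrays. The difference was -2.98 (SE 0.40, limma adjusted p = 0.0167). With normexp it shrank to -0.67 and the call ended (limma adjusted p = 0.551). With normexp and quantile normalization it was -1.05 and was called (limma adjusted p = 0.0148), so its size is uncertain.

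C5ar1, the receptor for the small fragment of C5, was well above background on intermediate replicate 3 alone and was not tested. Its levels were -5.10, -4.71 and -2.96 in the intermediate layer and -4.13, -6.85 and -5.95 in the outer layer (mm9 chr7:16832243-16832302). Outer replicate 1 lay above 2 of the intermediate samples, and a difference could not be measured at this brightness.

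In all, 4 of the 7 tested genes were called lower in the outer layer, beside 2.48% of all genes, and none was called higher. The groups did not overlap, with the outer interzone lower, for 5 of the 7, beside 11.4% of all genes. C1qa, C1qc and C3ar1 were tested only because the intermediate arrays measured them, so the counts over tested genes are a description. The arrays came from a pair of slides, the first with all 3 intermediate samples and outer replicate 1, the second with outer replicates 2 and 3. With slide as a covariate the C1q differences were -5.00 for C1qa, -3.55 for C1qb and -5.19 for C1qc (limma adjusted p = 0.00873, 0.00815 and 0.0102), and 4.08% of all genes were called lower. Within the shared slide these differences were the same and 4.42% of all genes were called lower, and in both fits they rest on the dim outer replicate 1, where C1qa and C1qc were not well above background.

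Leaving out 1 array ended several calls while these differences stayed negative, and the calls over all genes fell from 729 to 66 at the lowest. The differences ranged from -4.46 to -3.17 for C1qa, -3.26 to -2.73 for C1qb, -4.51 to -3.01 for C1qc and -3.30 to -2.62 for C3ar1. C1qa, C1qc and C3ar1 lost theirs without intermediate replicate 1 (limma adjusted p = 0.0823, 0.108 and 0.0639), without intermediate replicate 3 (0.108, 0.146 and 0.0779) and without outer replicate 3 (0.0879, 0.121 and 0.0553). C1qa and C1qc also lost them without intermediate replicate 2 (limma adjusted p = 0.0632 and 0.0886). C1qb lost its call without intermediate replicate 3 (limma adjusted p = 0.0525) or outer replicate 3 (0.0528). Without the dim outer replicate 1 all 4 were called, at -3.17 for C1qa, -2.73 for C1qb, -3.01 for C1qc and -3.06 for C3ar1. With normexp C1qa, C1qb and C1qc differed by -2.55, -2.21 and -2.90 and were called (limma adjusted p = 0.00527, 0.00572 and 0.00887). With quantile normalization C1qa and C1qc were not called (limma adjusted p = 0.0510 and 0.0597), nor were C1qc and C3ar1 with the replicate block and slide together (0.0586 and 0.0999). With no filter on dim probes none of these genes was called (limma adjusted p = 0.110 to 0.172 for the C1q genes and 0.127 for C3ar1).

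**Figure D3:**
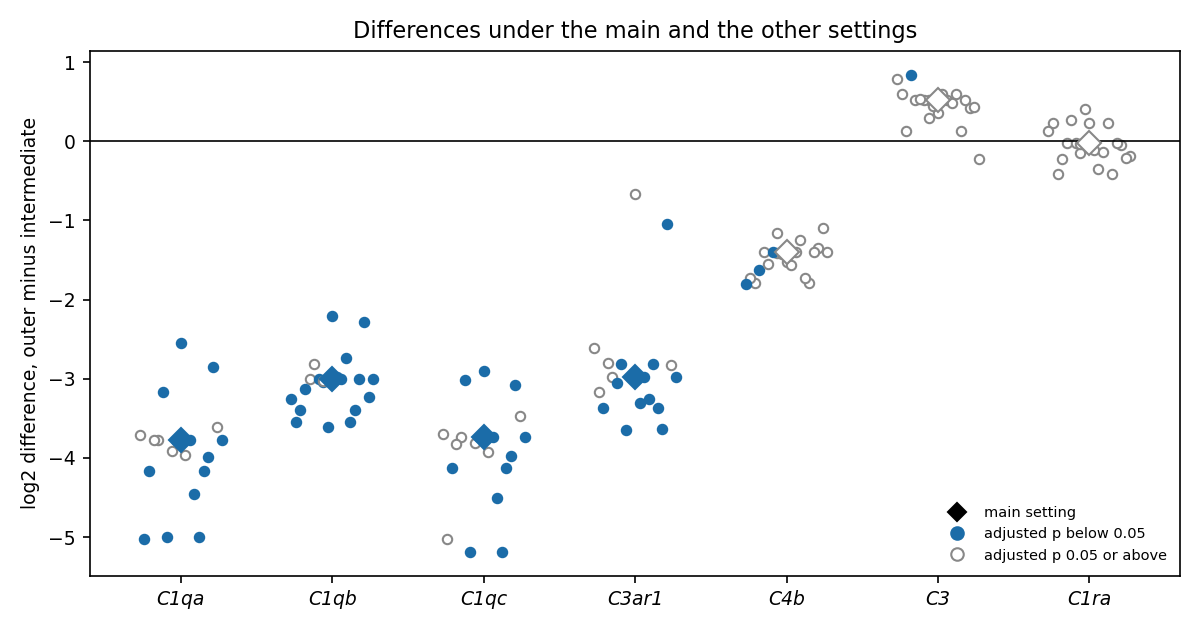
Differences between outer and intermediate interzone (log2, y axis) of the 7 tested genes in the main setting (diamonds) and in the alternatives that gave a value (circles), filled where the limma adjusted p was below 0.05. C1qa, C1qb, C1qc and C3ar1 are below zero in each, C3ar1 spans -3.65 to -0.67, and C3 and C1ra have values on both sides of zero.

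Genes of macrophages moved in the same direction as C1q. Of 20 markers of macrophages and monocytes 17 were tested, of which 12 were called lower in the outer layer, beside 2.48% of all genes. None was called higher and 5 were not called, with a median difference of -3.01 against 0.10 over all genes. Of those called, Adgre1, Cx3cr1, Mrc1, Fcgr3, Cd14, Lyz2 and Mpeg1 were tested only because the intermediate arrays measured them. The same held for Ptprc, Cd53, Laptm5 and Trem2 among those not called, so these counts are a description. Csf1r, the receptor on which most macrophages depend, fell by 2.28 (limma adjusted p = 0.0237). Adgre1, which encodes a surface protein used to mark macrophages, fell by 3.78 (limma adjusted p = 0.0311). The outer replicate 1 spots of Adgre1 were not well above background. The summed level of the 17, in multiples of the 75th percentile, was 88.5 to 147.1 on the intermediate and 11.4 to 29.5 on the outer arrays. No outer array measured Lyz2 or Cd53 well above background, and none of the 6 measured Cd163. The part of macrophage number in the C1q and C3ar1 values was not tested, and in whole tissue fewer cells of a type and less RNA per cell cannot be told apart.

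The genes whose profile over the 6 arrays was closest to the mean of the 3 C1q genes were Ptpn6, Ms4a6c, Stab1, Pf4 and Fcer1g. The measure was the root mean square distance between profiles centred on their own mean, which was 0.098 to 0.18 for these 5 and 1.93 for the median gene. It was 0.18 for C1qa, 0.42 for C1qb and 0.26 for C1qc themselves, 0.70 for C3ar1, 1.23 for C4b, 1.92 for C1ra and 2.20 for C3. Ptpn6, which encodes a phosphatase of blood cells, had levels of 0.59, 0.05 and 0.91 in the intermediate layer and -3.93, -1.88 and -2.86 in the outer layer. Ptpn6 and Ms4a6c were not well above background on outer replicate 1, so their closeness there rests on an unmeasured value. Stab1, Pf4 and Fcer1g were measured on all 6 arrays. The C1q mean that all 5 are set against still holds C1qa and C1qc, which were not well above background on outer replicate 1. Stab1, a scavenger receptor gene of macrophages and some endothelium, had 4.18, 3.49 and 4.74 against -0.31, 1.88 and 0.50. Stab1 repeats the order of the outer samples seen for C1q, with replicate 2 highest and the dim replicate 1 lowest, which is also the order of array brightness.

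**Figure D4:**
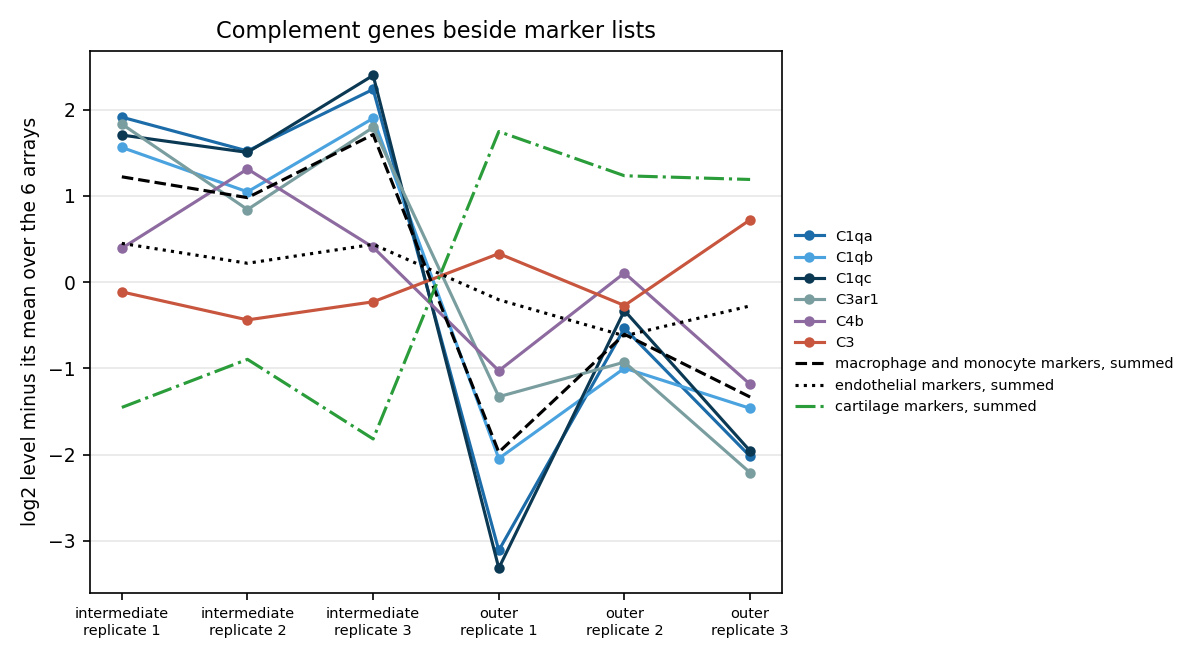
Levels of 6 complement genes and log2 summed levels of macrophage, endothelial and cartilage markers, each minus its mean over the 6 arrays (y axis), for every array (x axis). Lines only join the points of 1 gene or list. C1qa, C1qb, C1qc, C3ar1, the macrophage markers and the endothelial markers are above zero on the intermediate and below zero on the outer arrays. The cartilage markers are the reverse.

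Other cell types varied too. Of 10 endothelial markers 7 were called lower in the outer layer, beside 2.48% of all genes, with a median difference of -2.31. With the replicate block 9 were called lower, beside 4.44% of all genes. Tek, Tie1 and Emcn were tested only because the intermediate arrays measured them, so these counts are a description. The summed levels were 100.4 to 117.8 on the intermediate and 56.0 to 74.9 on the outer arrays. Kdr, a receptor for vascular endothelial growth factor, made up much of the outer sum and differed by 0.82 the other way (limma adjusted p = 0.231). Without it, a choice made after the values were seen, the sums were 79.4 to 96.2 and 14.9 to 30.8. None of 4 tested neutrophil and mast cell markers and none of 5 tested erythroid markers was called, whereas the replicate block called 2 of each list (limma adjusted p = 0.0391 for Kit, 0.0441 for Elane, 0.0441 for Hbb-y and 0.0378 for Slc4a1). Elane was higher and the other 3 lower in the outer layer. Slide as a covariate called 1 and 3, and the summed erythroid level overlapped between the groups (701.2 to 1971 against 81.2 to 1355). Of 8 hepatocyte markers 1 was tested, Apoa2 (difference 0.53, limma adjusted p = 0.392). The defining liver genes Alb, Afp and Ttr were at background on all 6 arrays. The part of these cell types in the C3 and C4b values was not tested.

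The wider complement system was described with 51 further genes in 5 lists. Probes were found for 50 by name and 23 were tested. Of these 6 were called lower in the outer layer, beside 2.48% of all genes. None was called higher and 17 were not called, with a median difference of -0.67. Fcna and Cfb were tested only because the intermediate arrays measured them, so these counts are a description. The genes called were spread over the routes by which complement starts, its control and its receptors. Several of those not tested, among them the lectin gene Mbl2, the protease gene Masp1 and the late components C6, C8a, C8b and C9, gave no signal well above background.

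On the classical and lectin side 2 of 4 tested genes were called. Fcna, a ficolin that starts the lectin pathway, had levels of -0.85, -1.74 and -0.82 in the intermediate layer and -4.05, -3.25 and -5.80 in the outer layer (difference -3.23, limma adjusted p = 0.0426). It was well above background on 1 outer array, and its call ended with the replicate block (limma adjusted p = 0.0539), with slide as a covariate (limma adjusted p = 0.100) with normexp (difference -0.76) and without any 1 array other than outer replicate 2. Colec12, a collectin of scavenger type, was measured on all 6 arrays and was 1.80-fold lower in the outer layer (limma adjusted p = 0.0461). It lost its call with slide as a covariate (limma adjusted p = 0.105) and with normexp (difference -0.71, limma adjusted p = 0.277). Keeping its sign, it also lost the call without each of the 6 arrays in turn (limma adjusted p = 0.0735 to 0.177). Fcna and Colec12 were both called with normexp and quantile normalization (limma adjusted p = 0.0189 and 0.0371). C2, the partner of C4 in the convertase, differed by -1.64 without passing (limma adjusted p = 0.251), and its outer replicate 1 spot was not well above background.

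Both tested genes of the alternative pathway were called lower in the outer layer. Cfb, the protease of the alternative convertase, had levels of 0.17, -0.87 and 0.40 against -2.51, -2.37 and -1.96, a difference of -2.18 (limma adjusted p = 0.0246). Its outer replicate 1 spot was not well above background. With normexp the difference was -0.99 and Cfb was not called (limma adjusted p = 0.280). The call of Cfb also ended without intermediate replicate 1 or 3 or outer replicate 3 (0.0863, 0.0987 and 0.0712). Cfp, which encodes properdin, a stabiliser of that convertase, had 1.96, 1.82 and 1.92 against 1.18, 0.63 and 0.99, a difference of -0.97 (limma adjusted p = 0.0455). Its call ended with slide as a covariate (limma adjusted p = 0.133), with normexp (0.0612) and with quantile normalization without normexp (0.0675). It also ended without any 1 array other than outer replicate 1 (limma adjusted p = 0.0595 to 0.165). Cfb and Cfp were both called with normexp and quantile normalization (limma adjusted p = 0.0234 and 0.0247). The third gene of the list, Cfd, which encodes factor D, was at background on all 6 arrays. C8g, the 1 tested gene of the terminal pathway, was not called (difference 0.77, limma adjusted p = 0.217).

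Among 9 tested regulators 1 was called, or 2 with the replicate block and 4 with slide as a covariate. Serping1, which encodes the inhibitor of C1r and C1s, had levels of 0.72, 0.92 and 1.16 in the intermediate layer and -0.49, 0.04 and -0.08 in the outer layer, 2.16-fold lower (limma adjusted p = 0.0413). The mean of its 2 probes gave -1.50 and no call (limma adjusted p = 0.0646), and normexp gave -0.88 and no call (0.147). With normexp and quantile normalization it was called (limma adjusted p = 0.0239). The call also ended without any 1 array other than outer replicate 2 (limma adjusted p = 0.0739 or above). Clu (0.24), Cr1l (-0.03) and C1qbp (-0.06) lay near the median of all genes and were not called (limma adjusted p = 0.519, 0.939 and 0.888). Not all uncalled regulators lay there. Cd55 and Daf2 differed by -1.14 and -1.07 (limma adjusted p = 0.265 and 0.245), and the median difference of the 9 was -0.67.

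Of 7 further receptors tested 1 was called. Cd93, once described as a C1q receptor and abundant on endothelium, had levels of 4.73, 4.23 and 5.02 in the intermediate layer and 1.71, 2.67 and 2.43 in the outer layer, 5.23-fold lower (limma adjusted p = 0.0159). It was measured on all 6 arrays and was called with the replicate block, with slide as a covariate and with normexp (limma adjusted p = 0.0330, 0.00931 and 0.0135). It lost its call without intermediate replicate 1 or 3 or outer replicate 3 (limma adjusted p = 0.0615, 0.0711 and 0.0658). Itgam and Itgb2, the chains of complement receptor 3, differed by 0.76 and -0.48 and were not called (limma adjusted p = 0.486 and 0.431). Itgam is read from the brightest tested of its 3 probes, whose level was highest on outer replicate 1 (6.95). The summed macrophage level was lowest on that array (11.4). Agreement between the Itgam probes was not tested. Calr and Lrp1, expressed by most cells and linked to C1q-dependent uptake, differed by -0.12 and -0.42 and were not called (limma adjusted p = 0.724 and 0.310).

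**Figure D5:**
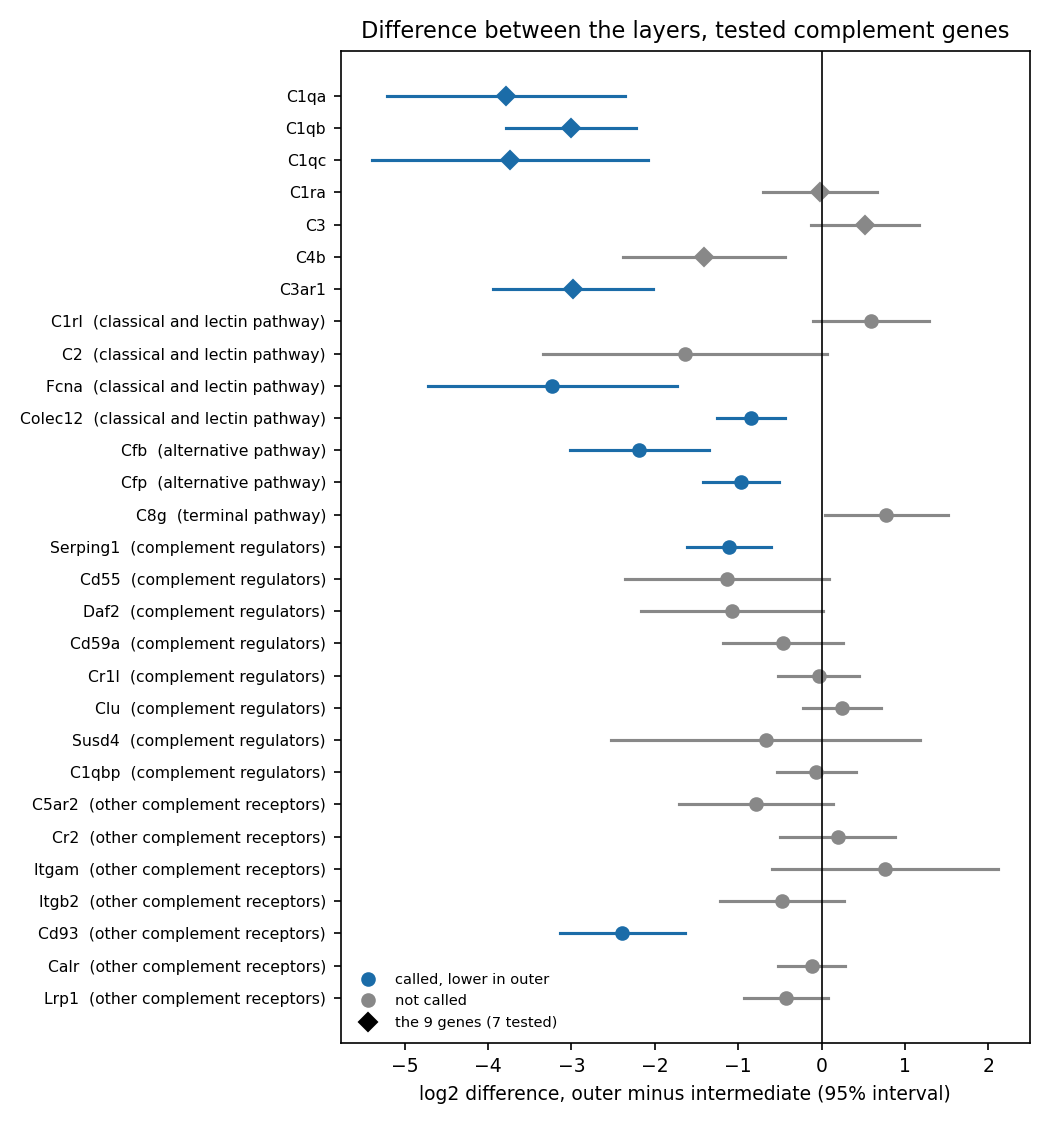
Differences between outer and intermediate interzone (log2, x axis) with 95% intervals for the 7 tested genes of the 9 (diamonds) and 22 of the 23 tested genes of the other complement lists (circles), blue where called lower in the outer layer and grey where not called. The C1q genes, C3ar1, Fcna, Cd93 and Cfb lie lowest among the called genes, and C1ra, C3, Clu, Cr1l and C1qbp have intervals that include zero.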

How the data were processed

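Expression was measured with 6 one-colour Agilent arrays, 3 for each layer. Per the file headers the arrays were read with Feature Extraction 10.7.3.1 on a grid of build mm9, and the authors' deposited scanner files give a processed signal intensity with background subtracted, mean and background intensities, and flags. Partek 6.11.0321 also stands in the submitters' processing notes, without its step. The authors' deposited table holds the same intensity divided by 1 constant for each array.

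Unflagged spots of a probe were averaged as log2 signal over the array's 75th percentile. A probe was tested where all 3 arrays of a group were well above background (23884 probes), and a gene took its brightest such probe. Symbols were updated through RefSeq accessions (26762 of 28390 matched). The outer and intermediate groups were set against each other by lmFit and eBayes of limma 3.58.1 (R 4.3.3; two-sided, Benjamini-Hochberg adjustment over all genes tested, threshold 0.05), which was tested on simulated data. A probe that does not stand for its gene has its adjusted p from the same fit over all tested probes.

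The genes described and all lists were chosen with earlier results of these data known. The named genes are the 9 genes, every called gene of the other complement lists or the brightest where none was called, the 5 most similar profiles and bright markers beside a result. C2, the other uncalled complement genes and Csf1r, Adgre1 and Apoa2 were chosen after their values were seen. Some genes of the lists are counted but not reported by name here. Same-numbered samples of the layers deviated together across genes (r = 0.563, 0.480 and 0.372), and the labels state no pairing. The replicate block is therefore given where it changes a call reported here. Alternatives were other scalings, normexp (offset 50), other filters, trend and robust eBayes, array weights, blocks for replicate number and slide, and leaving out each array. The number of arrays limits the precision.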

Additional observations from a re-analysis of the deposited data

How the results depend on the processing

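Against 729 genes called, limma called 452 with quantile normalization, 1095 with scaling to the median and with the authors' deposited values, 284 with normexp and the 75th percentile, 460 with signal required on all 6 arrays, 1636 with the replicate block, 1215 with slide as a covariate, 1314 within slide 1 and 3993 with array weights. Leaving out 1 array gave 66 to 1111. Of the complement genes, 4 were called lower. Quantile normalization and the replicate block with slide gave 2 each, the filter on all 6 arrays 1 of 4 tested, and leaving out 1 array 0 to 5. The 0 was without intermediate replicate 3 or outer replicate 3, with 5 at unadjusted p under 0.05 in each. With no filter limma called 0 genes and 0 of the 9, with 4268 and 5 at unadjusted p under 0.05. The replicate block ended or made no call among the 9 genes other than that of C4b. With array weights C3 was called higher (0.84, limma adjusted p = 0.0337) and C4b lower (-1.62, limma adjusted p = 0.0128). C1ra changed sign without being called with normexp (0.23), slide as a covariate (0.23), slide 1 alone (0.23) and both blocks (0.41), and ranged from -0.21 to 0.27 over the arrays left out. C3 changed sign with the mean of its probes (-0.22). C1qa, C1qb, C1qc, C3ar1 and C4b kept a lower outer level in every alternative that gave a value. Signal over background limits C1s, C5ar1, C3ar1 and the dim probes of C3 and C1ra most.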
